A study of Mus musculus with 35 samples.

Results

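The RNA and ribosome footprints of 10 genes that mark resident tissue macrophages were followed through every library of a leukemia experiment: Cd5l, C1qa, C1qb, C1qc, Vsig4, Mrc1, Axl, Mertk, Adgre1 and Vcam1. They were chosen with earlier results of these data known, so counts over them as a set are descriptions only. All 10 are present among the 55487 genes of the count tables. The libraries came from mouse MLL-AF9 acute myeloid leukemia cells, which express green fluorescent protein (GFP) and were grown in culture from the marrow disease of 1 sick mouse. Male recipients aged 8 to 10 weeks received these cells by vein, and viable GFP-positive cells were sorted from the marrow when the response to chemotherapy peaked. The sort therefore aimed at leukemia cells and not at macrophages, and no macrophage gate is described.

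RNA was sequenced in 6 treated sgOgfod1, 7 treated sgScramble, 5 vehicle sgOgfod1 and 5 vehicle sgScramble mice. Ribosome footprints, the fragments of mRNA that a ribosome covers, were sequenced in 2 treated sgOgfod1, 4 treated sgScramble, 3 vehicle sgOgfod1 and 3 vehicle sgScramble mice, all of which also had an RNA library. Treated mice ate a diet free of branched-chain amino acids (BCAA) and received "5+3", that is, cytarabine (100 mg/kg) daily for 5 days with doxorubicin (3 mg/kg) on days 1 to 3. Vehicle mice ate a diet with standard amino acids and received phosphate-buffered saline. The diet and the drugs differ between the same groups, and what each contributes cannot be told apart. sgOgfod1 cells carried a guide RNA against Ogfod1, a prolyl hydroxylase of a ribosomal protein, and sgScramble cells carried a scrambled guide. All groups carried cells of the same leukemia.

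Tissue macrophages clear dying cells, debris and aged red cells in marrow, spleen and liver. C1q binds dying cells and immune complexes and starts the classical complement pathway, while the receptor kinases Axl and Mertk bind such cells through the bridging proteins Gas6 and Pros1. Mouse macrophages that engulf red cells and support their development in marrow and spleen are known for Vcam1, for F4/80, which is the product of Adgre1, and for the transcription factor Spic. Adgre1 is also made by monocytes, and Vcam1 by stroma and endothelium, so neither marks macrophages alone.

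C1qa, C1qb and C1qc encode the 3 chains of C1q and lie side by side on the minus strand of chromosome 4 in the build GRCm38. C1qb spans chr4:136880129-136886187, C1qc chr4:136889804-136893065 and C1qa chr4:136895917-136898803. Cd5l, at chr3:87357881-87371073 on the plus strand, encodes a secreted scavenger protein that protects macrophages from death. Vsig4, at chrX:96247203-96293438 on the minus strand, encodes a receptor for complement C3 fragments. Mrc1, at chr2:14229392-14332057 on the plus strand, encodes the mannose receptor CD206. Axl lies at chr7:25757273-25788705 on the minus strand and Mertk at chr2:128698956-128802894 on the plus strand. Adgre1 lies at chr17:57358691-57483527 on the plus strand. Vcam1, at chr3:116109949-116129688 on the minus strand, encodes the adhesion molecule that holds cells bearing the integrin of Itga4 and Itgb1. All 10 are protein-coding, and counts were taken per gene. Mrc1 contains the microRNA gene Mir511, Mertk overlaps the antisense gene Gm14011 and a small nucleolar RNA gene, and Vcam1 overlaps the antisense gene Gm43109. The RNA protocol marks no strand, so reads of such pairs cannot be told apart where they overlap.

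RefSeq promoters of the build GRCm38.p6 were at hand for 7 of the 10 members. The 250 bases before the start are shown for 4 of them. C1qb and C1qc are neighbours whose RNA levels kept a nearly fixed ratio across treated mice. Cd5l had the largest fitted RNA change with treatment in sgScramble cells after Vsig4, whose change rests on few counts. Mertk was the member whose level departed most from the others in 1 mouse. Capitals mark GAGGAA, the core bound by the macrophage factor PU.1 (the product of Spi1), and TGCTGA, a half-site of MAF factors, on either strand. C1qb is at chr4:136886201-136886450 on the minus strand, C1qc at chr4:136892915-136893164 on the minus strand, Cd5l at chr3:87357631-87357880 on the plus strand and Mertk at chr2:128698665-128698914 on the plus strand.
C1qb: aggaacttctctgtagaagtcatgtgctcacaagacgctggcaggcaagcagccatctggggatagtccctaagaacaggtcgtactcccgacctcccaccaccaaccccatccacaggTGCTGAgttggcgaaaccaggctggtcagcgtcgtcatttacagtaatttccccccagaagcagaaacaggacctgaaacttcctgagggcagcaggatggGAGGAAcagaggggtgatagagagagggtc
C1qc: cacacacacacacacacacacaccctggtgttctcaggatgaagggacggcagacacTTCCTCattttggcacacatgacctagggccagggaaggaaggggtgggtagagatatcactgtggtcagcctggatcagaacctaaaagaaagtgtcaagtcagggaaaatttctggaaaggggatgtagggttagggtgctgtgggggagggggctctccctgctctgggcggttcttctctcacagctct
Cd5l: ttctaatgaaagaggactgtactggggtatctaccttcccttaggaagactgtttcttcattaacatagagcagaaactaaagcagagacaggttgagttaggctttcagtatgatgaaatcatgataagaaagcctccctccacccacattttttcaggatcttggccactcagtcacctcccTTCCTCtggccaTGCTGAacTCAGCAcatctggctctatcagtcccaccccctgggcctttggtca
Mertk: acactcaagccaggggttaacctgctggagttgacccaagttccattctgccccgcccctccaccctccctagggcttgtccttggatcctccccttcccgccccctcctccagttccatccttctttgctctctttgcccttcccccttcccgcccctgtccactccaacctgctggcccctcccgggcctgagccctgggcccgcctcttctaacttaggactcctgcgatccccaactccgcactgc

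The PU.1 core was present in 6 of the 7 member promoters of 300 bases, from 250 before to 50 after the start, and in 28.3% of the 32851 promoters of the table. Mertk was the member without it. The MAF half-site was present in 3 of 7, those of C1qb, Cd5l and Vsig4, and in 19.5% of all promoters. The GC box GGGCGG was present in 4 of 7, those of Axl, C1qc, Mertk and Mrc1, and in 35.7% of all. The core of the interferon-stimulated response element, the AP-1 site TGANTCA and the TATA box TATAAA were in 0 of 7, against 3.44%, 7.81% and 13.6% of all promoters. Both strands were searched, and no marked match shared bases with another. A match is a description of the letters only.

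Total counts ran from 31.9 to 142.7 M in RNA and from 5.7 to 14.6 M in footprints (M, 1e6 counts). Levels are CPM, the counts of a gene per 1e6 counts of its library, on library sizes scaled by the trimmed mean of M values. As a check of the labels, Ogfod1 footprints averaged 2.18 ± 1.04 CPM in treated sgOgfod1 cells and 15.0 ± 2.16 CPM in treated sgScramble cells (SD, n = 2 and 4), and 2.42 ± 0.676 CPM in vehicle sgOgfod1 cells and 14.6 ± 0.872 CPM in vehicle sgScramble cells (SD, n = 3 each). Its RNA was a weaker check. Treated sgOgfod1 mice had 3.75 to 13.0 CPM and treated sgScramble mice 12.3 to 31.6 CPM, which overlap (edgeR quasi-likelihood test, adjusted p = 0.00608). Vehicle sgOgfod1 mice had 8.57 to 11.7 CPM and vehicle sgScramble mice 19.7 to 24.9 CPM (adjusted p = 0.0846). Mice with RNA alone have only this check. On the first principal component of RNA, which holds 45.2% of the variance, treated sgScramble replicate 4 (-127.7) and treated sgOgfod1 replicate 3 (-72.54) lay beyond all other libraries, of which the nearest was at -41.38. Results that rest on these 2 libraries are given with and without them. The labels name separate mice, which are the replicates here.

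In leukemia cells of vehicle sgScramble mice the 10 genes fell into 2 kinds. Adgre1 and Vcam1 were high, while the other 8 were close to absent. In vehicle sgScramble RNA, Adgre1 averaged 418 ± 47.6 CPM and Vcam1 391 ± 73.7 CPM (SD, n = 5), whereas Axl, the highest of the rest, averaged 3.00 ± 0.783 CPM and Vsig4 0.0192 ± 0.0207 CPM. Per kilobase of exon, the RNA levels of the same mice ran from Adgre1 at 129 ± 14.7 CPM and Vcam1 at 44.1 ± 8.31 CPM down to C1qb at 1.81 ± 0.430 CPM, C1qc at 0.973 ± 0.325 CPM and C1qa at 0.763 ± 0.260 CPM. Axl at 0.596 ± 0.156 CPM, Cd5l at 0.419 ± 0.201 CPM, Mertk at 0.257 ± 0.160 CPM and Mrc1 at 0.202 ± 0.0862 CPM per kilobase followed. Vsig4 was last at 0.0129 ± 0.0139 CPM. From C1qc down to Mrc1 each gene lay within 1 SD of the next, so the order of neighbours is not resolved. In vehicle sgOgfod1 RNA the 8 were low but had higher means, with Axl at 10.4 ± 1.73 CPM and Mrc1 at 5.14 ± 0.744 CPM. Adgre1 averaged 276 ± 28.7 CPM and Vcam1 283 ± 84.3 CPM there (SD, n = 5). Adgre1 and Vcam1 thus did not share the near absence of the other 8 members from vehicle sgScramble leukemia, and the name of macrophage marker holds for them in these cells less than for the rest.

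Treatment raised the C1q genes, Cd5l, Vsig4, Mrc1, Axl and Mertk in sgScramble cells, with fitted RNA folds from 14.1 for Mertk to 127 for Cd5l beside a far higher and less certain one for Vsig4. Vcam1 rose by 1.88-fold, and Adgre1 did not pass the test. Of the 10 members, 9 passed the test as higher and 0 as lower in sgScramble RNA, against 12.9% of 21474 genes called in either direction and 8.60% called higher and 4.34% lower (edgeR quasi-likelihood test, adjusted p under 0.05 over all genes tested). Their median log2 fold change was 6.21, against -0.01 over all genes. In bulk samples a change in the number of cells of a type and a change in RNA per cell cannot be told apart. The share of macrophages among the sorted cells was not tested. The 20 other tissue macrophage genes summed to 2090 to 6550 CPM in treated sgOgfod1, 3700 to 11200 CPM in treated sgScramble, 2940 to 3770 CPM in vehicle sgOgfod1 and 3310 to 3980 CPM in vehicle sgScramble RNA. Of these 20, Clec4f, a marker of liver macrophages, was at 0 in every treated RNA library.

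**Figure D1:**
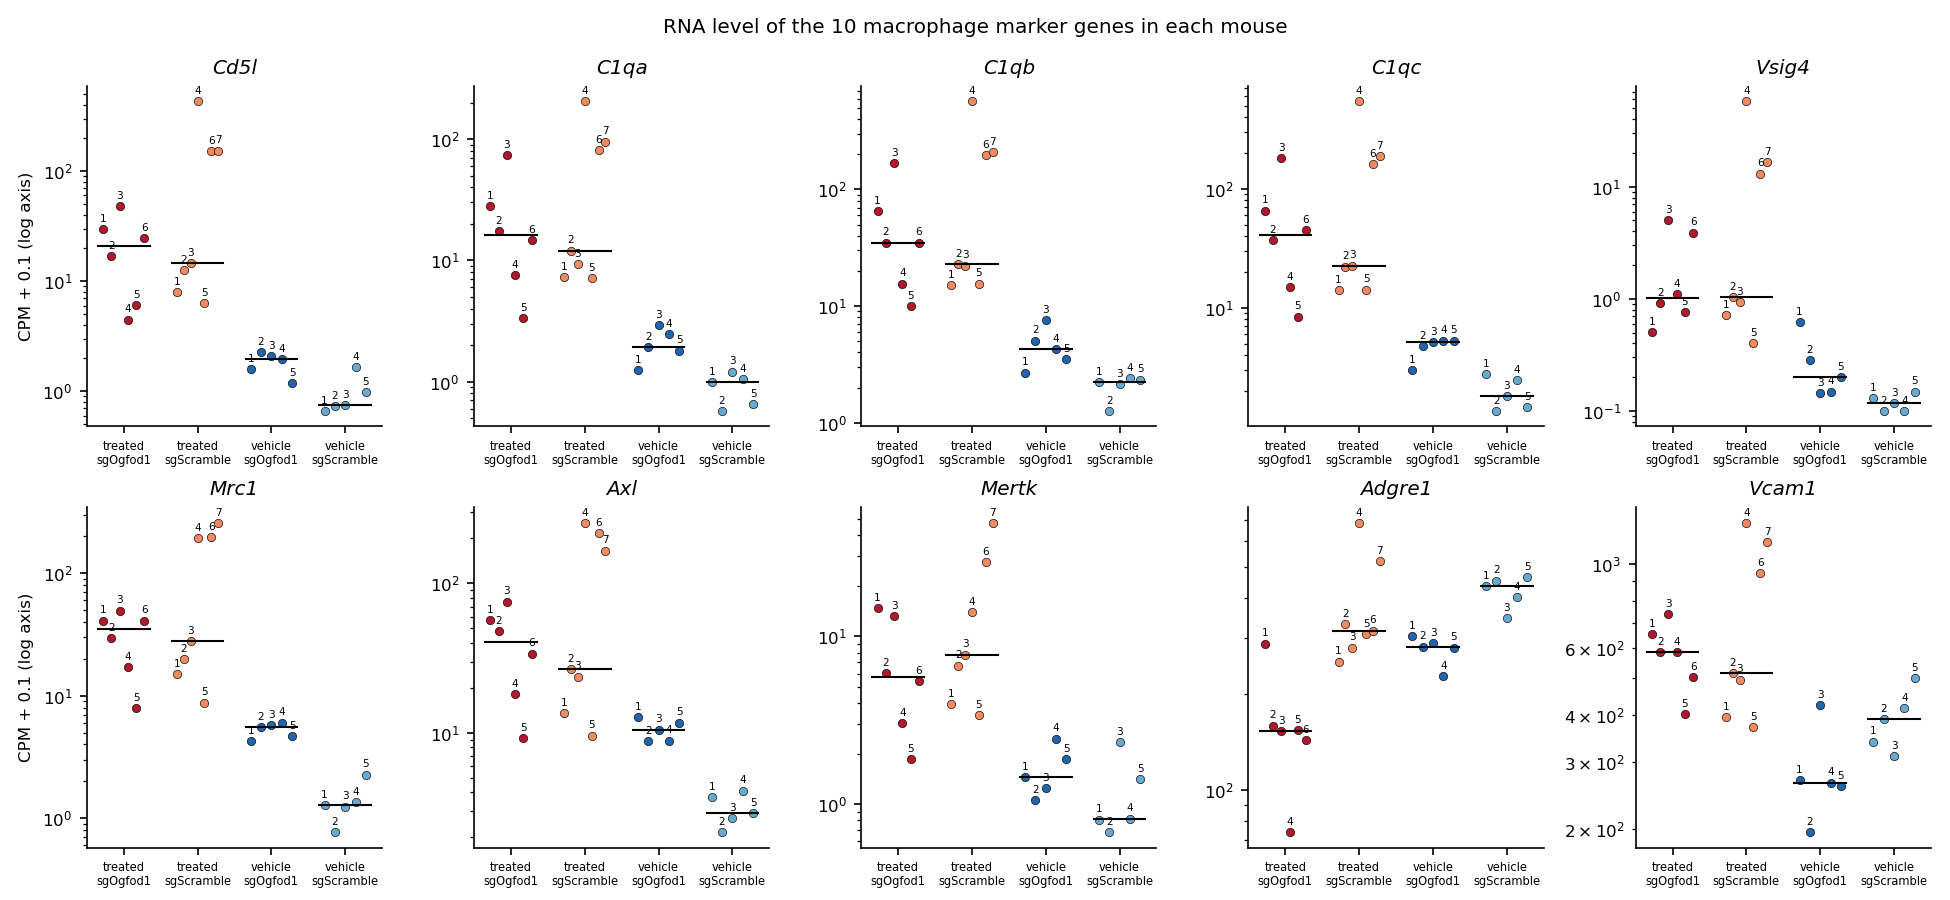
RNA level of each gene in each mouse, as CPM + 0.1 on a log axis, by group. Points are mice, labelled with the replicate number, and bars are group medians. In treated sgScramble mice, replicates 4, 6 and 7 lie above the other 4 in 9 of the 10 genes, and in 8 genes all treated sgScramble mice lie above all vehicle sgScramble mice, as for 5.94% of all genes tested.

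C1qb RNA stood at 15.1, 22.8, 22.1, 568, 15.5, 196 and 210 CPM in treated sgScramble replicates 1 to 7, against 2.12, 1.16, 2.05, 2.30 and 2.24 CPM in vehicle sgScramble replicates 1 to 5. Every treated mouse exceeded every vehicle mouse, and within the treated group 3 mice lay apart from the other 4 by 8.59-fold. The log2 fold change was 6.25 ± 1.03 (SE), or 75.8-fold between means (edgeR, adjusted p = 0.000407), while the group medians differed 10.7-fold. C1qa rose by 6.22 ± 1.01 (adjusted p = 0.000323) and C1qc by 6.20 ± 1.03 (adjusted p = 0.000431) on the same scale, with the same 3 mice highest.

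Cd5l RNA ran from 6.17 through a median of 14.4 to 429 CPM in treated sgScramble mice (n = 7), against 0.561, 0.630, 0.642, 1.55 and 0.876 CPM in vehicle sgScramble replicates 1 to 5. No treated value overlapped a vehicle value, and the 3 highest were replicates 4, 6 and 7 at 429, 152 and 153 CPM. The log2 fold change was 6.99 ± 1.11 (edgeR, adjusted p = 0.000276).

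Vsig4 had 21 to 2957 counts per library in treated sgScramble mice, or 0.305, 0.929 and 57.4 CPM as lowest, median and highest. In vehicle sgScramble mice it had 5 counts in all over 5 libraries, 2 of which had 0. Groups did not overlap, and the test called the rise (edgeR, adjusted p = 0.000659), but the fitted log2 fold change of 9.29 ± 1.63 rests on those 5 counts. Mrc1 RNA ran from 8.67 through 27.9 to 257 CPM in treated sgScramble mice, against 0.665 through 1.18 to 2.17 CPM in vehicle sgScramble mice. It had a log2 fold change of 6.31 ± 0.86 and the smallest adjusted p of the members, 7.55e-05 (edgeR).

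Of the receptor kinases, Axl RNA stood at 9.47, 26.7 and 254 CPM as lowest, median and highest in treated sgScramble mice, against 2.05, 2.79 and 3.99 CPM in vehicle sgScramble mice. The log2 fold change was 5.08 ± 0.81 (edgeR, adjusted p = 0.000276). Mertk RNA stood at 3.30, 7.70 and 47.4 CPM in treated sgScramble mice, against 0.578, 0.718 and 2.25 CPM in vehicle sgScramble mice, a log2 fold change of 3.82 ± 0.70 (edgeR, adjusted p = 0.00091). Both kinases were higher in each treated sgScramble mouse than in any vehicle sgScramble mouse.

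Adgre1 and Vcam1 behaved differently. Adgre1 RNA was 252, 331, 279, 684, 307, 315 and 520 CPM in treated sgScramble replicates 1 to 7, against 434, 452, 344, 401 and 462 CPM in vehicle sgScramble replicates 1 to 5. The groups overlapped, and the log2 fold change was -0.12 ± 0.25 with a 95% interval from -0.64 to 0.39 (edgeR, adjusted p = 0.805), whereas limma voom called it as lower (-0.41, adjusted p = 0.0456). Vcam1 RNA was 394, 515, 495, 1280, 371, 943 and 1140 CPM in treated sgScramble replicates 1 to 7, against 340, 389, 311, 416 and 500 CPM in vehicle sgScramble replicates 1 to 5. Only replicates 4, 6 and 7 stood well clear of the vehicle range, and the log2 fold change was 0.91 ± 0.28 (edgeR, adjusted p = 0.0332). Leaving out treated sgScramble replicate 4, 6 or 7, or vehicle sgScramble replicate 1, 2, 3 or 4, one at a time, ended the Vcam1 call, with adjusted p from 0.0636 to 0.0861. In the mice that also had a footprint library, none of which is replicate 4, 6 or 7 of the treated sgScramble group, Vcam1 differed by 0.14 (adjusted p = 0.853).

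The summed RNA level of the 8 members other than Adgre1 and Vcam1 was 76.8, 123, 128, 2260, 64.5, 1050 and 1130 CPM in treated sgScramble replicates 1 to 7, against 11.8, 6.81, 11.5, 13.1 and 11.4 CPM in vehicle sgScramble replicates 1 to 5. Replicates 4, 6 and 7 were the 3 highest for 9 of the 10 members, and for Adgre1 the highest were 2, 4 and 7. The gap between the lowest of the 3 and the highest of the other 4 mice was 14.0-fold for Vsig4, 10.5-fold for Cd5l, 6.94-fold for Mrc1, 6.21-fold for Axl, 1.83-fold for Vcam1 and 1.80-fold for Mertk. So replicates 4, 6 and 7 lay above the other 4 mice for 9 of the 10 members, by gaps that differed from 1.80-fold to 14.0-fold.

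**Figure D2:**
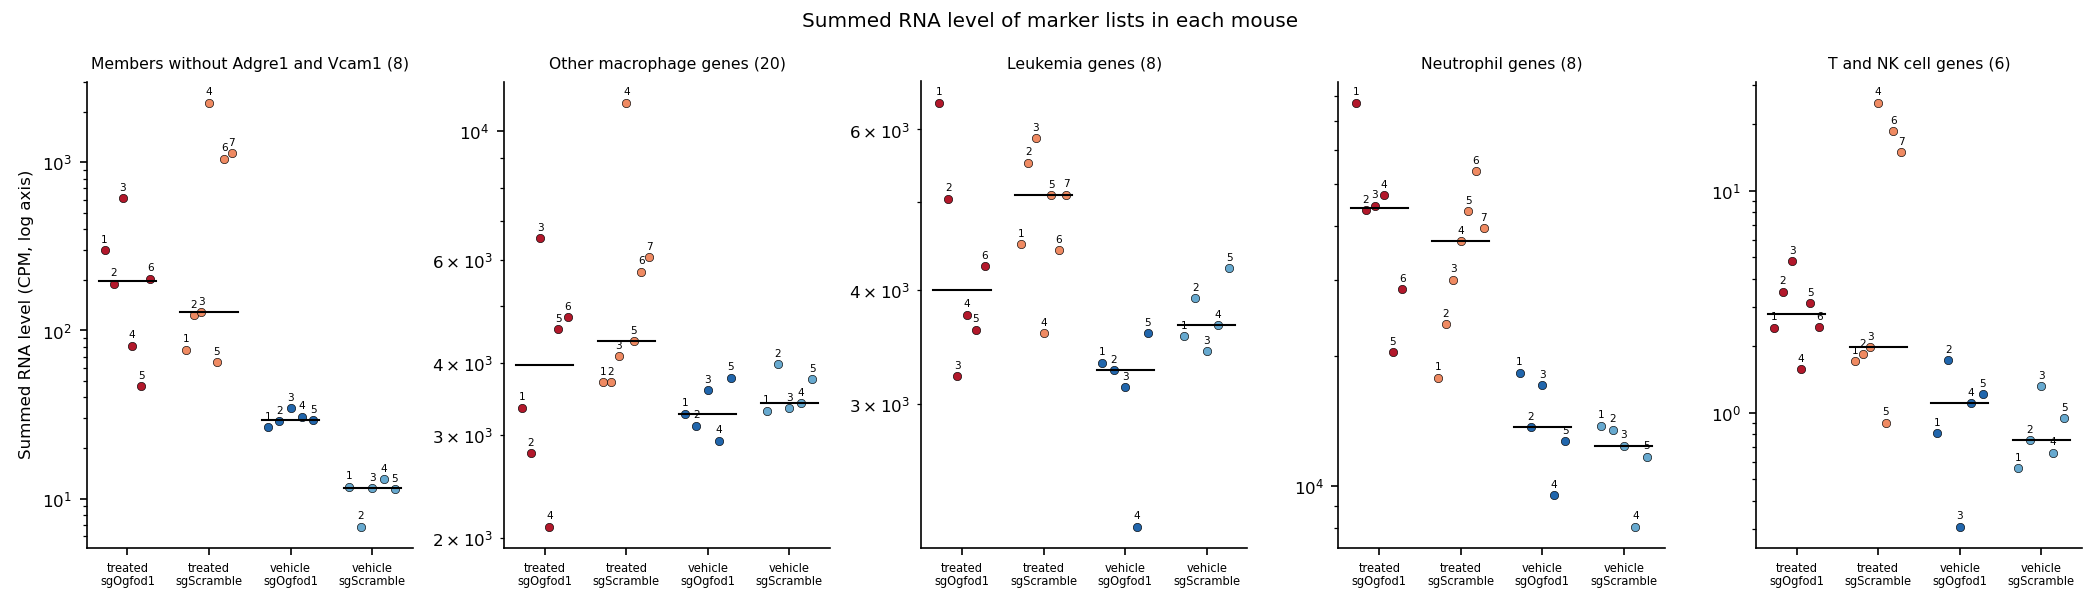
Summed RNA level of the 8 members other than Adgre1 and Vcam1 and of 4 marker lists in each mouse, in CPM on log axes, with the number of genes listed in each panel's title. Points are mice, labelled with the replicate number, and bars are group medians. Treated sgScramble replicates 4, 6 and 7 are highest of their group for the members, the other macrophage genes and the T and NK cell genes, and are not the 3 highest for the leukemia or neutrophil genes.

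The size of the change depended on those mice, while the calls of the 8 members other than Adgre1 and Vcam1 did not. Without treated sgScramble replicate 4, the fold change in sgScramble RNA was 65.3 for Cd5l in place of 127, 40.2 for C1qb in place of 75.8, 44 for C1qa in place of 74.7, 37.3 for C1qc in place of 73.7 and 261 for Vsig4 in place of 628. Over the mice with a footprint library alone, it was 14.1 for Cd5l, 12.3 for C1qa, 10.3 for C1qb, 12.4 for C1qc, 26.9 for Vsig4, 13.2 for Mrc1, 7.31 for Axl and 3.81 for Mertk, and these 8 still passed the threshold, with adjusted p from 3.05e-05 to 0.0183 (edgeR).

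Other marker lists moved with the members in the same mice. The 20 other tissue macrophage genes summed to 11200, 5740 and 6070 CPM in treated sgScramble replicates 4, 6 and 7, against 3700 to 4360 CPM in the other 4 treated sgScramble mice and 3310 to 3980 CPM in vehicle sgScramble mice. These 3 mice had no footprint library here, so the comparison is of RNA alone. The 6 T and NK cell genes summed to 24.9, 18.6 and 14.9 CPM in replicates 4, 6 and 7, against 0.900 to 1.97 CPM in the other 4 treated sgScramble mice. The 6 erythroid genes were likewise highest in replicates 4, 6 and 7, at 8.86, 2.81 and 3.05 CPM, against 0.624 to 1.29 CPM in the other 4 treated sgScramble mice. The 8 leukemia genes summed to 3590 to 5870 CPM in treated sgScramble mice, lowest in replicate 4, against 3430 to 4230 CPM in vehicle sgScramble mice. The 8 neutrophil genes summed to 17800 to 53500 CPM in treated sgScramble mice, against 8050 to 13800 CPM in vehicle sgScramble mice, with no overlap. The 4 megakaryocyte genes were also higher without overlap, at 11.6 to 23.7 CPM in treated sgScramble mice, against 3.46 to 6.33 CPM in vehicle sgScramble mice. The sum of the 5 monocyte genes was lower without overlap, at 444 to 955 CPM in treated sgScramble mice, against 973 to 1130 CPM in vehicle sgScramble mice. Fcgr1 is on this list and on that of other tissue macrophage genes, and by itself it rose with treatment. Library totals of replicates 4, 6 and 7 were 66.1, 142.7 and 65.8 M counts, against 56.1 to 79.6 M counts in the other 4. The part of other cells or of depth in these differences was not tested.

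Although levels varied widely between treated mice, the C1q genes kept their proportions. Over the 13 treated mice C1qa RNA spanned 63.2-fold, whereas the ratio of C1qb to C1qa ran only from 1.92 through a median of 2.28 to 3.09. The ratio of C1qc to C1qb ran from 0.828 through 0.956 to 1.29 while C1qb spanned 57.1-fold. Cd5l over C1qb ran from 0.282 to 0.776, Mrc1 over C1qb from 0.293 to 1.26 and Axl over C1qb from 0.447 to 1.37. Mertk over C1qb ran from 0.0244 to 0.348, and its lowest value was in treated sgScramble replicate 4, where Mertk was 13.8 CPM beside 27.6 and 47.4 CPM in replicates 6 and 7. Mrc1 was 194 CPM in replicate 4, beside 196 and 257 CPM in replicates 6 and 7, although Cd5l, C1qa, C1qb and Vsig4 were highest in replicate 4. So replicate 4 was not a uniformly scaled version of replicates 6 and 7.

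In sgOgfod1 cells 7 of the members rose with treatment: Cd5l, the 3 C1q genes, Mrc1, Mertk and Vcam1. None passed as lower, against 9.87% of all genes called in either direction and 5.69% called higher and 4.18% lower (edgeR). C1qb RNA stood at 64.6, 34.8, 169, 15.5, 9.94 and 34.9 CPM in treated sgOgfod1 replicates 1 to 6, against 2.59, 4.95, 7.43, 4.19 and 3.40 CPM in vehicle sgOgfod1 replicates 1 to 5. Groups did not overlap, and replicate 3 was the highest and replicate 5 the lowest of the treated mice. The log2 fold change was 3.60 ± 0.91 (adjusted p = 0.0131). Cd5l rose by 3.65 ± 0.95 (adjusted p = 0.0164), C1qa by 3.61 ± 0.89 (0.0111), C1qc by 3.67 ± 0.91 (0.0121) and Mrc1 by 2.59 ± 0.72 (0.0236), all without overlap. Mertk rose by 2.27 ± 0.66 (adjusted p = 0.0305) and Vcam1 by 1.03 ± 0.29 (0.0248), in groups that overlapped. The share of all genes without overlap was not counted for this comparison, so no background stands beside these overlaps. Vsig4, at 3.39 ± 1.19 (0.0719), and Axl, at 1.95 ± 0.70 (0.0777), missed the threshold, as did Adgre1 at -0.77 ± 0.26 (0.058). DESeq2 called all 3, Vsig4 (3.44, adjusted p = 0.0199) and Axl (1.96, 0.0327) as higher and Adgre1 (-0.75, 0.0355) as lower. The 8 neutrophil genes summed to 20400 to 77000 CPM in treated sgOgfod1 RNA, against 9510 to 18300 CPM in vehicle sgOgfod1 RNA, with no overlap. The 6 erythroid genes were lower without overlap, at 1.15 to 3.91 CPM in treated sgOgfod1 RNA, against 7.16 to 16.4 CPM in vehicle sgOgfod1 RNA. Their part was not tested.

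Treated sgOgfod1 replicate 3 was the highest for 8 of the 10 members. The summed RNA level of the 8 members other than Adgre1 and Vcam1 was 300, 190, 614, 81.3, 46.8 and 203 CPM in treated sgOgfod1 replicates 1 to 6, against 26.7, 28.8, 34.5, 30.7 and 29.4 CPM in vehicle sgOgfod1 replicates 1 to 5. Without replicate 3, C1qb rose by 2.84 (adjusted p = 0.0364) and Cd5l by 3.25 (0.0342), whereas Mertk no longer passed at 2.03 (0.0619). Over the mice with a footprint library alone, Cd5l (3.14-fold, adjusted p = 0.0245) and C1qc (2.22-fold, 0.0353) still passed, while C1qa (0.138), C1qb (0.0512), Mrc1 (0.234), Mertk (0.756) and Vcam1 (0.208) did not. Over those mice Vsig4 was called as higher (3.61, adjusted p = 0.0398) and Adgre1 as lower (-1.22, 0.0198). Leaving out vehicle sgOgfod1 replicates one at a time ended the call of Mrc1 for each of replicates 1 to 5, of Mertk for replicates 1, 2, 3 and 5, and of Vcam1 for replicates 1, 2, 4 and 5. Leaving out treated sgOgfod1 replicate 1 ended that of Mertk too (1.96, adjusted p = 0.0653). In treated sgOgfod1 replicate 3 the other tissue macrophage genes also summed highest, to 6550 CPM against 2090 to 4790 CPM in the other 5.

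Ribosome footprints of Cd5l, the C1q genes, Mrc1, Axl and Mertk also rose with treatment in sgScramble cells. There, 7 of the 9 members tested passed as higher and 0 as lower, against 15.6% of 18290 genes called in either direction and 8.12% called higher and 7.44% lower (edgeR). Vsig4 had 0 to 3 counts in every footprint library, too few to test. In both treated sgOgfod1 libraries it had 0 counts, which allows up to 3 counts per library, for counting error alone.

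**Figure D3:**
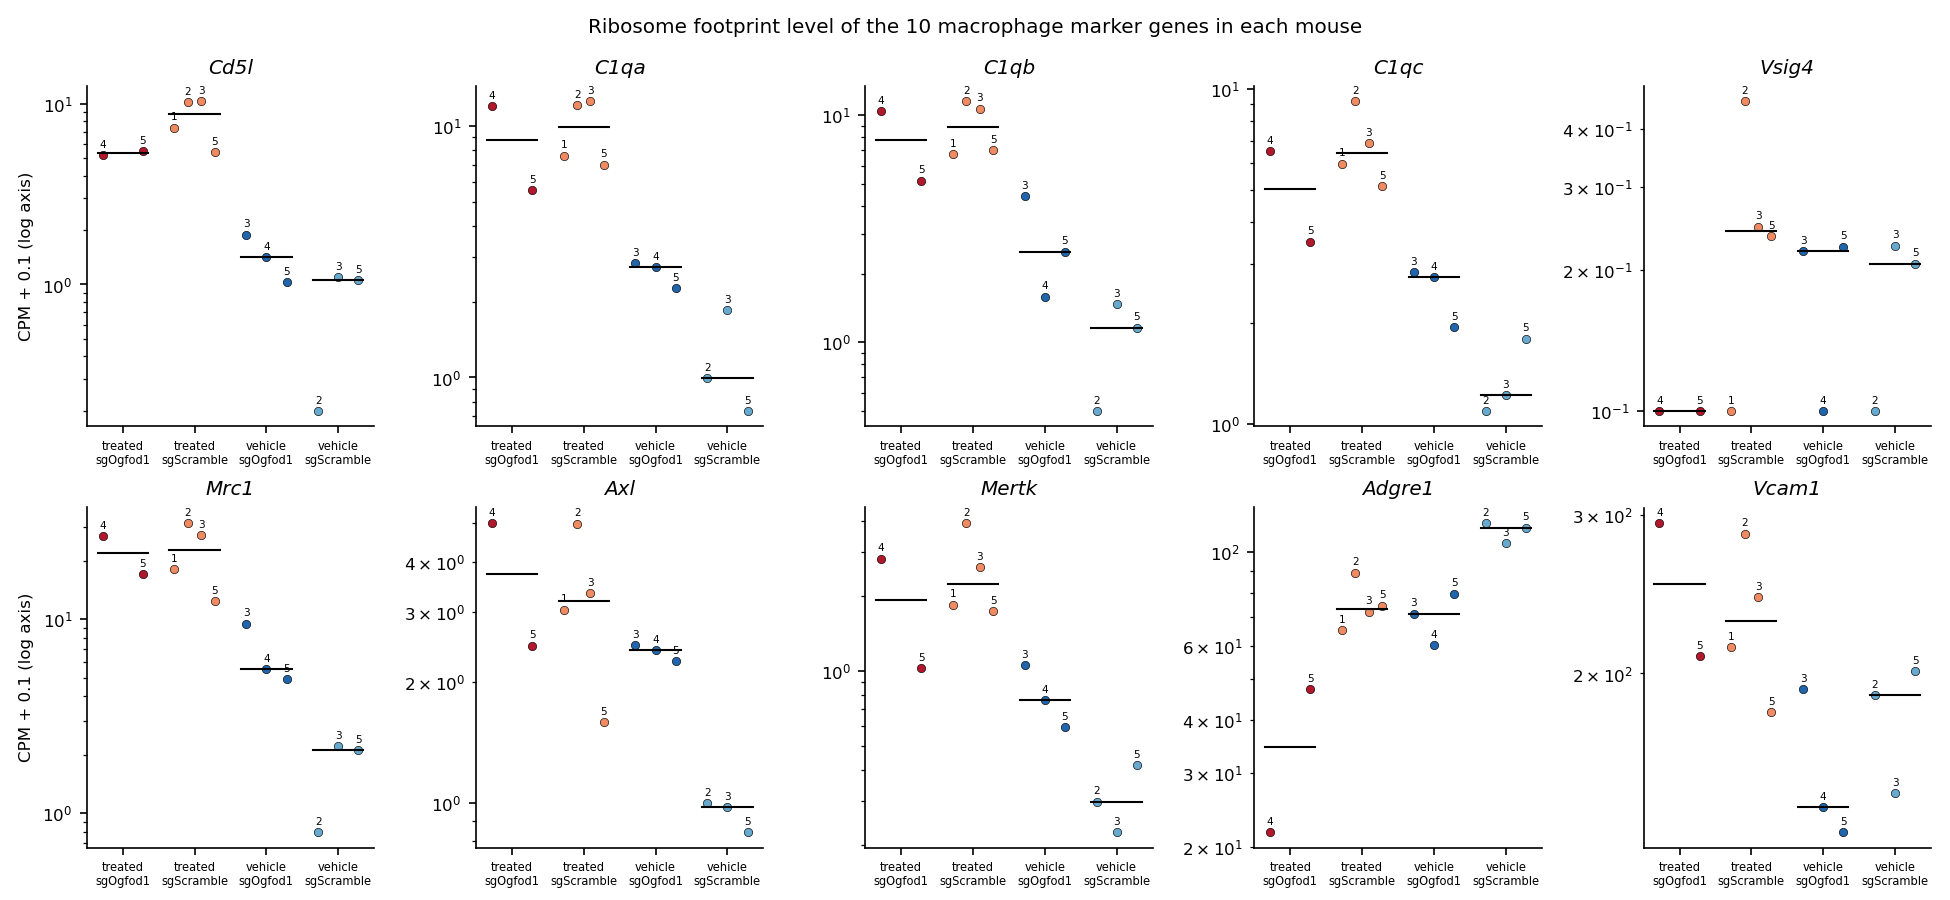
Ribosome footprint level of each gene in each mouse, as CPM + 0.1 on a log axis, by group. Points are mice, labelled with the replicate number of the same mouse in RNA, and bars are group medians. Treated sgScramble mice lie above vehicle sgScramble mice without overlap for Cd5l, the 3 C1q genes, Mrc1, Axl and Mertk, and below them for Adgre1. Of all genes tested, 15.1% lie above and 16.1% below without overlap.

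C1qa footprints were 7.51, 12.0, 12.4 and 6.92 CPM in treated sgScramble replicates 1, 2, 3 and 5, against 0.895, 1.75 and 0.636 CPM in vehicle sgScramble replicates 2, 3 and 5. No values overlapped, and the log2 fold change was 3.17 ± 0.38 (edgeR, adjusted p = 0.000212). C1qb followed with 6.64, 11.4, 10.6 and 6.92 CPM in the treated mice, against 0.398, 1.37 and 1.06 CPM in the vehicle mice, a change of 3.26 ± 0.45 (adjusted p = 0.000765). C1qc changed by 2.38 ± 0.31 (adjusted p = 0.000222). All 3 chains of C1q thus carried more footprints in treated sgScramble cells.

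Cd5l footprints were 7.29, 10.1, 10.2 and 5.29 CPM in treated sgScramble replicates 1, 2, 3 and 5, against 0.0995, 1.00 and 0.954 CPM in vehicle sgScramble replicates 2, 3 and 5 (3.61 ± 0.42, adjusted p = 0.000143). Mrc1 footprints were 18.0, 31.3, 27.1 and 12.3 CPM in the treated mice, against 0.696, 2.12 and 2.01 CPM in the vehicle mice (3.80 ± 0.49, adjusted p = 0.00127). Mrc1 was the highest of the 8 induced members in footprint CPM in every treated mouse. Axl rose by 1.90 ± 0.40 (adjusted p = 0.0051) and Mertk by 3.40 ± 0.57 (adjusted p = 0.00124). Mertk rested on 1 to 3 counts per vehicle sgScramble library, against 12 to 32 counts per treated sgScramble library.

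Adgre1 footprints were 65.1, 89.3, 72.1 and 74.6 CPM in treated sgScramble replicates 1, 2, 3 and 5, against 117, 105 and 114 CPM in vehicle sgScramble replicates 2, 3 and 5. The treated values lay below the vehicle values without overlap, but the log2 fold change of -0.57 ± 0.21 missed the threshold (edgeR, adjusted p = 0.0815). DESeq2 (adjusted p = 0.0413), limma voom (0.0121) and the fit with the replicate number as a block (0.0244) called it. Vcam1 footprints overlapped between the groups (0.37 ± 0.18, adjusted p = 0.198).

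In sgOgfod1 footprints 3 members passed as higher and 1 as lower, against 8.22% of genes called in either direction, 4.65% higher and 3.56% lower (edgeR). The treated mice here were replicates 4 and 5, the lowest of their group in summed RNA of the 8 members other than Adgre1 and Vcam1. That sum was 81.3 and 46.8 CPM in them, against 190 to 614 CPM in the other treated sgOgfod1 mice. Cd5l was 5.11 and 5.36 CPM in treated sgOgfod1 replicates 4 and 5, against 1.79, 1.32 and 0.926 CPM in vehicle sgOgfod1 replicates 3, 4 and 5 (2.02 ± 0.43, adjusted p = 0.00996). C1qa rose by 1.82 ± 0.38 (adjusted p = 0.00987) and Mrc1 by 1.76 ± 0.45 (adjusted p = 0.0403). Adgre1 fell to 21.6 and 47.3 CPM in treated sgOgfod1 mice, against 71.4, 60.2 and 79.6 CPM in vehicle sgOgfod1 mice (-1.04 ± 0.26, adjusted p = 0.0316). C1qb at 1.48 ± 0.43 (adjusted p = 0.0502) and C1qc at 1.07 ± 0.33 (0.0567) missed the threshold while their groups did not overlap. How many of all genes lacked overlap between these small groups was not counted. With 2 treated mice these calls were not stable: leaving out treated sgOgfod1 replicate 4 ended the calls of C1qa (adjusted p = 0.0976), Mrc1 (0.191) and Adgre1 (0.0776), and leaving out vehicle sgOgfod1 replicate 5 ended that of Cd5l (0.0515). The Adgre1 call also ended without vehicle sgOgfod1 replicate 3 or 5 or vehicle sgScramble replicate 5 (adjusted p from 0.0504 to 0.082). The Mrc1 call also ended without treated sgOgfod1 replicate 5, vehicle sgOgfod1 replicate 4 or 5, treated sgScramble replicate 3, or vehicle sgScramble replicate 3 or 5.

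**Figure D4:**
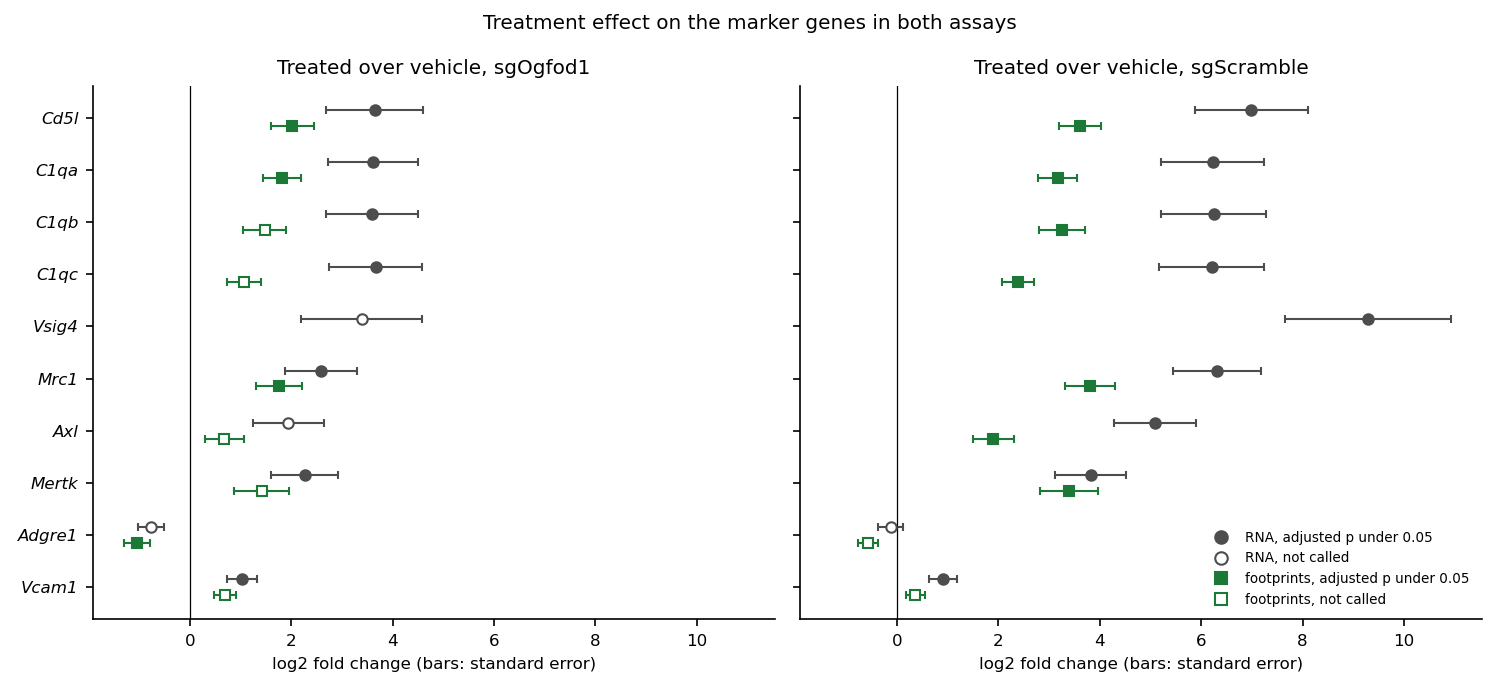
Treatment effect on each gene as log2 fold change, treated over vehicle, in sgOgfod1 cells (left) and sgScramble cells (right), for RNA and footprints. Bars are standard errors, and filled symbols mark an adjusted p under 0.05. Apart from Adgre1, every tested gene lies to the right of 0 in both genotypes and both assays. RNA was fitted over 23 mice and footprints over 12, so the pairs of symbols do not cover the same mice.

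Translation efficiency, the footprint level relative to RNA in the same mice, was called for 0 of 10 members in all 5 comparisons (edgeR, assay-by-group term). In the treatment effect of sgScramble cells, 2 members had an unadjusted p under 0.05, as did 11.2% of 28606 genes, of which 0.930% were called. C1qc came nearest with -1.22 ± 0.34 (adjusted p = 0.0959), followed by Axl with -0.94 ± 0.36 (adjusted p = 0.283). For Cd5l the change was -0.08 ± 0.48 with a 95% interval from -1.18 to 1.02, and for Mrc1 0.12 ± 0.35 with an interval from -0.68 to 0.92. In sgOgfod1 cells 2 members had an unadjusted p under 0.05, 1 of which was Vsig4 with its near-empty footprints, as did 5.32% of genes, and 0.0839% of genes were called. In the genotype comparisons 2 members under treatment and 1 under vehicle had an unadjusted p under 0.05, as did 6.75% of genes under treatment and 7.20% under vehicle. Of all genes 0.0489% under treatment and 0.0594% under vehicle were called. In the interaction 3 members had an unadjusted p under 0.05, as did 5.80% of genes, and 0% of genes were called. No other tool was run for translation efficiency. Folds of RNA in the full fit and of footprints come from different sets of mice and were not compared.

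**Figure D5:**
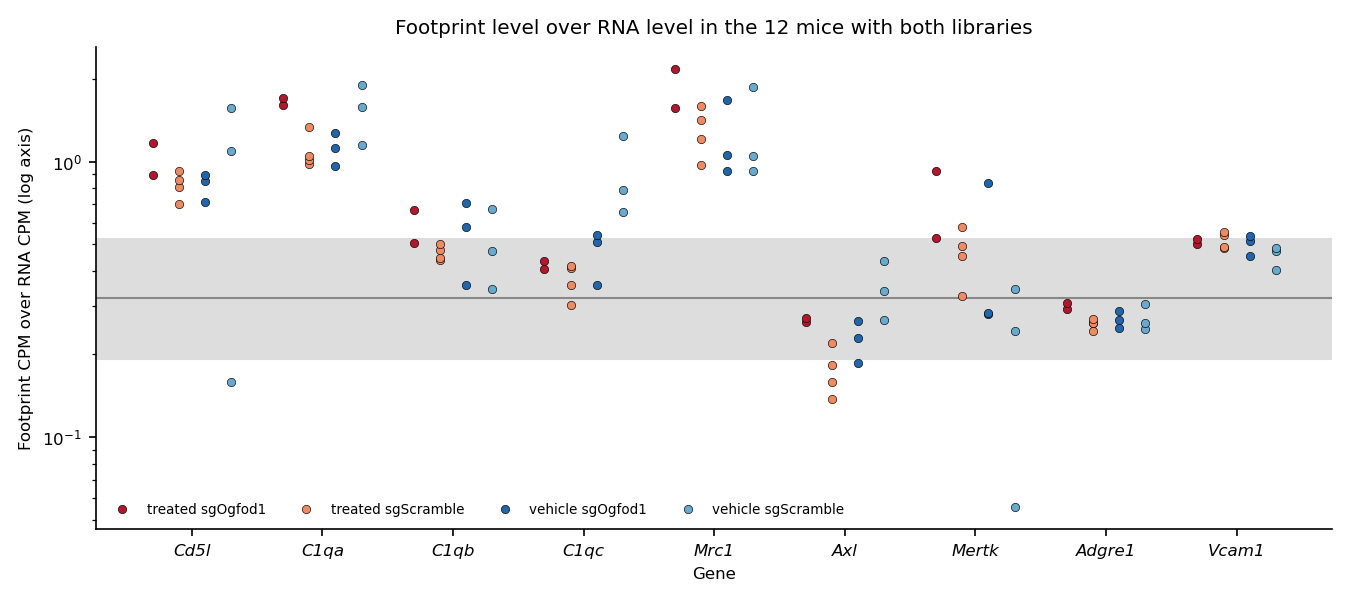
Footprint CPM over RNA CPM of the same mouse, on a log axis, for the 9 members counted in footprints. Points are the 12 mice with both libraries, in the group order given by the legend, the grey line is the median of 10206 protein-coding genes and the grey band the range between their quartiles. Mrc1 and C1qa lie above the band, and the medians of Axl and Adgre1 in its lower part.

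The ratio of footprints to RNA differed among members. Over the 12 mice the median ratio was 1.31 for Mrc1, 1.21 for C1qa, 0.877 for Cd5l, 0.496 for Vcam1, 0.490 for C1qb, 0.426 for C1qc, 0.400 for Mertk, 0.262 for Adgre1 and 0.245 for Axl. For 10206 protein-coding genes with a mean of at least 1 CPM in both assays the quartiles were 0.192, 0.319 and 0.525. The ratio of Adgre1 stayed between 0.243 and 0.306 and that of Vcam1 between 0.403 and 0.555, while those of the scarce members spread widely, as with Mertk at 0.0556 to 0.921. The chains C1qa and C1qb are assembled into 1 protein. Over all 13 treated mice their RNA had a median ratio of 2.28 (C1qb over C1qa), from 1.92 to 3.09. Their footprints had a median ratio of 0.904, from 0.857 to 1.00, over the 6 treated mice with both assays. So these medians cover different sets of mice, although the ranges do not overlap. Per kilobase of coding sequence, footprints of treated sgScramble mice were 13.2 ± 3.93 CPM for C1qa, 11.7 ± 3.26 CPM for C1qb and 9.05 ± 2.35 CPM for C1qc (SD, n = 4), within 1 SD from each chain to the next.

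Between genotypes under treatment, Adgre1 was lower in sgOgfod1 cells and no other member passed the test. Its RNA was 287, 159, 153, 73.7, 154 and 143 CPM in treated sgOgfod1 replicates 1 to 6, against 252, 331, 279, 684, 307, 315 and 520 CPM in treated sgScramble replicates 1 to 7. Replicate 1 of the sgOgfod1 mice overlapped the sgScramble range and the other 5 lay below it. The log2 fold change was -1.25 ± 0.24 (edgeR, adjusted p = 0.0166), and 1 of 10 members was called, against 0.391% of all genes in either direction with 0.265% called higher and 0.126% lower. The 2 libraries that stand apart did not carry it, since it was -1.03 without them (adjusted p = 0.0213). With the replicate number as a block the call was lost, at -1.18 (adjusted p = 0.165). Footprints of Adgre1 were 21.6 and 47.3 CPM in treated sgOgfod1 mice, against 65.1, 89.3, 72.1 and 74.6 CPM in treated sgScramble mice. These groups did not overlap, but the difference of -1.13 ± 0.25 missed the threshold (edgeR, adjusted p = 0.0501). DESeq2 (adjusted p = 0.000274) and limma voom (0.0456) called it. How many of all genes lacked overlap in this comparison was not counted.

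The other members gave no call between genotypes under treatment, in spite of fitted log2 differences in RNA from -0.35 ± 0.26 for Vcam1 to -2.72 ± 0.99 for Vsig4. Mean and median pointed opposite ways: for 7 of the 10 members the sgOgfod1 mice had the lower mean and the higher median. Cd5l averaged 21.5 ± 16.4 CPM in treated sgOgfod1 mice and 111 ± 155 CPM in treated sgScramble mice (SD, n = 6 and 7), with medians of 20.6 and 14.4 CPM in the same order of groups. Its fitted difference of -2.36 ± 0.80 had an adjusted p of 0.188 (edgeR). C1qb averaged 54.7 ± 59.0 CPM and 150 ± 204 CPM, with medians of 34.8 and 22.8 CPM in that order. In footprints 0 of the 9 members tested were called, against 1.58% of genes. These libraries came from treated sgOgfod1 replicates 4 and 5 and treated sgScramble replicates 1, 2, 3 and 5. In each group those mice were the lowest in summed RNA of the 8 members other than Adgre1 and Vcam1. Of these 9, 1 had an unadjusted p under 0.05, as did 15.8% of genes, and DESeq2 and limma voom called no member other than Adgre1.

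In vehicle mice, several scarce members were higher in sgOgfod1 than in sgScramble cells by direction, without a call. Mrc1 RNA was 4.17, 5.43, 5.62, 5.92 and 4.55 CPM in vehicle sgOgfod1 replicates 1 to 5, against 1.18, 0.665, 1.14, 1.26 and 2.17 CPM in vehicle sgScramble replicates 1 to 5. The groups did not overlap, yet the fitted difference of 1.99 ± 0.75 had an adjusted p of 0.817 (edgeR, unadjusted p = 0.0139). Axl RNA was 12.6, 8.67, 10.4, 8.76 and 11.6 CPM in vehicle sgOgfod1 replicates 1 to 5, against 3.60, 2.05, 2.59, 3.99 and 2.79 CPM in vehicle sgScramble replicates 1 to 5, again apart (1.80 ± 0.73, adjusted p = 0.928). In all, 5 members were higher and 1, Adgre1, was lower without overlap in RNA, against 2.41% of all genes tested higher and 1.69% lower without overlap. The test called 0 members, against 0.116% of genes, 0.0978% higher and 0.0186% lower. In it 3 members had an unadjusted p under 0.05, as did 4.62% of genes. DESeq2 called 0 members, and limma voom called Adgre1 as lower (-0.60, adjusted p = 0.0256).

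Footprints of the vehicle mice showed the same direction. Mrc1 footprints were 9.40, 5.45 and 4.82 CPM in vehicle sgOgfod1 replicates 3, 4 and 5, against 0.696, 2.12 and 2.01 CPM in vehicle sgScramble replicates 2, 3 and 5 (2.03 ± 0.55, adjusted p = 0.0986). Axl footprints were 2.38, 2.31 and 2.16 CPM in vehicle sgOgfod1 mice, against 0.895, 0.875 and 0.742 CPM in vehicle sgScramble mice (1.43 ± 0.43, adjusted p = 0.0929). Here 6 members were higher and 1 lower without overlap, against 13.4% of all genes tested higher and 13.1% lower. The test called 0 members, against 1.81% of genes, and 7 had an unadjusted p under 0.05, as did 17.1% of genes. DESeq2 called Mrc1 (adjusted p = 0.000169) and C1qb (0.0367) as higher, and limma voom Adgre1 as lower (0.0396). RNA and footprints of a mouse came from 1 lysate, so the assays are not independent samples. Markers of other cells were summed in these groups too. The 6 erythroid genes summed to 7.16 to 16.4 CPM in vehicle sgOgfod1 RNA, against 0.746 to 2.37 CPM in vehicle sgScramble RNA, without overlap. In footprints the erythroid sums overlapped, at 27.1 to 56.1 CPM in vehicle sgOgfod1 and 15.2 to 70.1 CPM in vehicle sgScramble mice. Sums of the 4 basophil and mast cell genes overlapped in RNA, at 23.2 to 765 CPM in vehicle sgOgfod1 and 25.7 to 37.8 CPM in vehicle sgScramble mice. Their part was not tested.

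The interaction, which subtracts the treatment effect of sgScramble cells from that of sgOgfod1 cells, was called for 0 of 10 members in RNA and 0 of 9 in footprints, against 0% of 21474 genes and 0.0656% of 18290 genes (edgeR). In RNA 7 members had an unadjusted p under 0.05, all with a smaller rise in sgOgfod1 cells, as did 4.54% of genes in either direction, and DESeq2 and limma voom called 0. Mrc1 had the smallest unadjusted p, 0.000897, at -3.72 ± 0.98 with a 95% interval from -5.77 to -1.68 (adjusted p = 0.728). In footprints 7 members had an unadjusted p under 0.05, as did 9.29% of genes, and DESeq2 called Mrc1 (-2.06, adjusted p = 0.0387) and limma voom 0. So the smaller folds in sgOgfod1 cells were not shown to differ from those in sgScramble cells.

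Among genes of related function, other tissue macrophage genes rose in part. Of 19 tested in sgScramble RNA, 10 were higher and 0 lower after treatment, against 8.60% and 4.34% of all genes. Their median log2 fold change was 2.45, against -0.01 over all genes. Those with the smallest p were Fcgr1, a receptor for immunoglobulin G (5.61 ± 0.97, adjusted p = 0.000581), Ms4a7 (5.59 ± 0.98, 0.00061), the lectin Fcna (6.12 ± 1.07, 0.000653) and the lipid carrier Apoe (4.93 ± 0.93, 0.00113). In sgOgfod1 RNA 4 of 19 were higher and 1 lower, against 5.69% and 4.18% of all genes. The 4 were Apoe (3.02 ± 0.85, adjusted p = 0.0253), Ms4a7 (2.88 ± 0.85, 0.0336), Fcna (3.10 ± 0.93, 0.0355) and the scavenger receptor Marco (4.30 ± 1.33, 0.0409), and the 1 was Csf1r, the receptor for the macrophage growth factor Csf1 (-1.37 ± 0.43, 0.042), named after its value was seen. In sgScramble footprints 7 of 15 were higher and 3 lower, against 8.12% and 7.44% of all genes. Fcna (3.49 ± 0.36, adjusted p = 4.10e-05) and the sialic acid receptor Siglec1 (3.84 ± 0.42, 6.43e-05) led those that were higher. The 3 lower ones, named after their values were seen, were Csf1r (-1.54 ± 0.30, 0.0077), Cd68 (-1.18 ± 0.29, 0.023) and Gpnmb (-2.0 ± 0.36, 0.00173), genes that macrophages and myeloid leukemia cells both can express.

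Of 12 macrophage transcription factors tested in sgScramble RNA, 6 were higher and 1 lower (median 0.90), against 8.60% and 4.34% of all genes. The lower one was Irf8 (-2.10 ± 0.48, adjusted p = 0.00529), named after its value was seen. Spic rose by 4.58 ± 0.82 (adjusted p = 0.000793), the oxysterol receptor gene Nr1h3 by 3.84 ± 0.83 (0.00335), Pparg by 2.65 ± 0.58 (0.00367) and Maf by 2.90 ± 0.65 (0.0044). Spic RNA ran from 4.41 through 10.8 to 118 CPM in treated sgScramble mice, against 0.718 through 1.29 to 3.09 CPM in vehicle sgScramble mice. In sgOgfod1 RNA 3 of 12 were higher and 1 lower, against 5.69% and 4.18% of all genes. Pparg (2.13 ± 0.57, adjusted p = 0.0197), Spi1 (0.82 ± 0.23, 0.028) and Spic (2.49 ± 0.75, 0.0365) rose, and Irf8, a factor of monocyte and dendritic cell development, fell (-3.14 ± 0.53, 0.000569).

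Of 19 complement genes other than C1q tested in sgScramble RNA, 9 were higher and 0 lower (median 1.99), against 8.60% and 4.34% of all genes. The smallest p belonged to the C5a receptor C5ar1 (2.00 ± 0.26, adjusted p = 5.59e-05), the complement inhibitor Cd55 (5.11 ± 0.88, 0.000541), C4b (3.00 ± 0.54, 0.00079) and factor B, Cfb (2.16 ± 0.53, 0.00838). In sgOgfod1 RNA 6 of 19 were higher and 0 lower, against 5.69% and 4.18% of all genes. Among the 6 were C5ar1 (2.05 ± 0.27, adjusted p = 7.14e-05) and C1s1, a protease that works with C1q (3.46 ± 0.99, 0.0283).

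Of 20 genes for the uptake of dying cells tested in sgScramble RNA, 5 were higher and 2 lower, against 8.60% of all genes higher and 4.34% lower, with a median of -0.01. Gas6, the ligand of Axl and Mertk, was 1.07 through 2.77 to 17.1 CPM in treated sgScramble mice, against 0 through 0.132 to 0.392 CPM in vehicle sgScramble mice (5.11 ± 0.90, adjusted p = 0.000691). The lipid exporter Abca1 (3.96 ± 0.61, 0.000237) and the receptor Stab2 (3.60 ± 0.74, 0.00248) also rose, and the integrin chain Itgb3 fell (-1.77 ± 0.34, 0.00143). In sgOgfod1 RNA 3 of 20 were higher and 3 lower, against 5.69% and 4.18% of all genes. Gas6 was higher (4.05 ± 0.88, adjusted p = 0.00457) and Mfge8, another bridging protein, lower (-1.38 ± 0.35, 0.0138). Gas6 footprints had 6 to 16 counts in all per group.

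Of the scavenger and C-type lectin receptors, 6 of 14 were higher and 1 lower in sgScramble RNA, against 8.60% and 4.34% of all genes. Clec4d (1.89 ± 0.29, adjusted p = 0.000171), Clec4n (3.91 ± 0.77, 0.00174) and Cd163, the hemoglobin receptor (4.02 ± 0.82, 0.00233), led those that were higher. In sgOgfod1 RNA 4 of 14 were higher and 2 lower, against 5.69% and 4.18% of all genes. Clec4d was again higher (1.18 ± 0.28, 0.00939) and Cd209a lower (-4.00 ± 0.93, 0.00778). Iron and heme recycling had 8 of 10 higher and 0 lower in sgScramble RNA, with the iron exporter Slc40a1 (1.97 ± 0.40, adjusted p = 0.00214), the heme-degrading enzyme Hmox1 (2.60 ± 0.54, 0.0027) and ferritin Fth1 (1.59 ± 0.37, 0.00576). In sgOgfod1 RNA 3 of 10 were higher and 0 lower, Hp, Slc40a1 and Hmox1. The shares of all genes in the 2 comparisons are those given for the receptors.

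Of ligands and partners of Vcam1, 5 of 11 were higher and 2 lower in sgScramble RNA, against 8.60% and 4.34% of all genes. The integrin chain Itgad, which binds Vcam1 in macrophages, rose (5.22 ± 0.91, adjusted p = 0.000606), while Itga4, the chain by which leukemia cells bind Vcam1, fell (-1.06 ± 0.26, 0.00852). Itga4 also fell in sgOgfod1 RNA (-1.24 ± 0.27, adjusted p = 0.00502) and in footprints of both genotypes, sgOgfod1 (-0.76 ± 0.16, 0.00831) and sgScramble (-0.66 ± 0.13, 0.00339). Of genes of alternative activation, 7 of 13 were higher and 1 lower in sgScramble RNA, beside the same shares of all genes. Retnla (6.85 ± 0.68, adjusted p = 3.64e-06) and the chemokines Ccl12 (9.77 ± 1.39, 0.000113) and Ccl8 (10.59 ± 1.73, 0.00035) had the smallest p. The fitted folds of Ccl12 and Ccl8 rest on totals of 5170 and 42499 counts over the treated sgScramble libraries, against 3 and 17 counts over the vehicle sgScramble libraries. In sgOgfod1 RNA 6 of 13 were higher and 3 lower, against 5.69% and 4.18% of all genes, with Retnla at 5.02 ± 0.64 (adjusted p = 5.57e-05).

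By likeness to the mean log2 level of the 10 members over the 23 RNA libraries, the nearest of 11171 protein-coding genes were Fcna (Pearson r = 0.992), Slco2b1 (0.989), Rgl1 (0.987), Apoe (0.987), Itgad (0.986), Il18 (0.985), Hpgds (0.984), Ms4a7 (0.984), Spic (0.981) and Ccr3 (0.979). These libraries share the split by treatment, so the ranking was repeated over the 13 treated libraries after the mean of each genotype was removed. There Spic (0.991), Rgl1 (0.990), Lgmn (0.990), Fcna (0.989), Trf (0.988), Ifit3 (0.988), Hpgds (0.987), Apoe (0.986), Fcgrt (0.985) and Gfra2 (0.984) were nearest, and 5 genes stood in both lists of 10. Without the 2 libraries that stand apart, 10 of 10 and 6 of 10 genes stayed in the lists. Ranking by Spearman correlation kept 9 and 2 of 10, so the list within treated mice depends on the measure. These correlations are descriptions across libraries that share treatment and mouse.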

How the data were processed

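RNA (Smart-seq2, 23 libraries) and ribosome footprints (12 libraries) were deposited by the authors as raw counts of reads per Ensembl gene. The tools named in the submitters' processing notes are featureCounts, SAMtools, STAR, Bowtie2 and cutadapt, with the builds GRCm38 and mm10. Their versions, the annotation release and the strand setting are not given in the sources used here. Symbols and positions came from GENCODE M21, which named 55227 of 55487 identifiers. Promoters came from RefSeq.

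Each assay was fitted with edgeR 4.0.16 (R 4.3.3) in 1 quasi-likelihood model of all 4 groups, after filterByExpr and scaling by the trimmed mean of M values. Translation efficiency was the assay-by-group term over 12 mice with the mouse as a block. P-values were adjusted by Benjamini-Hochberg over all genes tested, with 0.05 as the threshold. SEs were derived from the log2 fold change and its F statistic, and 95% intervals from the SE and the residual degrees of freedom. The steps were tested on simulated data. Alternatives used limma 3.58.1 and DESeq2 1.42.0, other scaling and filters, a replicate block, a term for library numbers from 17 up and leaving out libraries. Vehicle libraries have numbers from 1 to 10 and treated ones from 11 to 25, so library order and treatment cannot be told apart. Python 3.11.15 with pandas 2.3.3 and matplotlib 3.10.9 made summaries and plots. Total counts of 31.9 to 142.7 M in RNA and 5.7 to 14.6 M in footprints (M, 1e6 counts) set the precision. Reads carry no molecular identifiers, so limits on counts of 0 cover counting error alone.

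Groups came from the genotype and treatment labels. The members, the gene lists and the tests were chosen with earlier results of these data known. In each gene list, genes were named if they were among the 4 with the smallest p in that comparison, and exceptions are marked as named after their values were seen. Counts of replicates differed by more than sampling noise, so no library was counted with another.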

Additional observations from a re-analysis of the deposited data

Results flagged for a closer look

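In vehicle sgScramble RNA, C1qb of replicate 2 was the lowest at 1.16 CPM, far below the other 4 mice at 2.05 to 2.30 CPM. In vehicle sgOgfod1 RNA, C1qc of replicate 1 was the lowest at 2.91 CPM, far below the other 4 mice at 4.66 to 5.21 CPM. These were 2 of 50 groups in which a sample could be tested for its distance from the rest, and chance marks about 1 in 20 groups.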

How the results depend on the processing

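Of 764 values of called members under the alternatives, 702 kept their direction and side of the threshold, 62 kept their direction but missed the threshold and 0 reversed. Treatment calls in sgScramble cells numbered 8 to 9 members in RNA and 7 to 8 in footprints when 1 library was left out. In sgOgfod1 cells such omissions gave 4 to 10 members in RNA and 1 to 7 in footprints. Between genotypes they gave 1 in treated and 0 in vehicle RNA, 0 to 1 in footprints of either treatment and in the footprint interaction, and 0 in the RNA interaction and in translation efficiency.

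In sgOgfod1 RNA 3 members were called with no filter on low counts and 4 (3 higher and 1 lower) in the mice with a footprint library, in place of 7 higher. DESeq2 called 10, 9 higher and 1 lower. With a term for library numbers from 17 up, 0 were called in sgOgfod1 footprints in place of 4. The treated sgOgfod1 footprint libraries are numbers 22 and 24 and the vehicle sgOgfod1 ones 8, 9 and 10. Within these groups the term therefore coincides with treatment, and the loss of calls cannot tell the 2 apart. In vehicle RNA between genotypes limma voom called 1 member, as did the mice with a footprint library. In treated footprints between genotypes 1 member was called with no filter, protein-coding genes alone, DESeq2, limma voom, the replicate block or without the library with the fewest counts, in place of 0. In vehicle footprints 4 were called with no filter, 2 by DESeq2 and 1 by limma voom. In the footprint interaction 1 was called with no filter and 1 by DESeq2. For translation efficiency in sgScramble cells 1 was called among protein-coding genes alone. The cause of these moves was not tested.

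Of same-numbered pairs, 6 of 31 in RNA and 0 of 11 in footprints had a correlation of deviations over 0.1, with a highest value of 0.441 in RNA. Pairs with different numbers were not set beside them, so whether the number pairs mice was not decided. With the replicate block, 8 members were called in sgScramble RNA, 6 in sgOgfod1 RNA and 0 between genotypes in treated RNA, where Adgre1 had an adjusted p of 0.165. Without the mouse as a block, an alternative chosen after seeing the data, 0 were called for translation efficiency. Over all genes, 2779 were called in sgScramble RNA, against 5687 by limma voom and 1479 with the replicate block. Scaling by plain totals moved fold changes by at most 0.36 on the log2 scale and changed 0 of 39 signs. Footprints of scarce members rest on few counts, and Vsig4 could not be judged there.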
